A study of Mus musculus with 4 samples.

Results

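The genes described here act in DNA damage signalling and repair. They are 39 named genes, taken as every probe on the arrays whose gene name, or the current symbol of its accession, is on that list. The arrays carried 73 probes for them, and all 39 genes had at least 1 probe above background, out of 17537 features tested in all. The list was assembled with earlier results of these data known. The cells were cultured mouse germline stem cells, the cultured form of spermatogonial stem cells, from testis. The comparison asked how transcript levels differ after induction of Nanos2, a regulator of RNA that holds these stem cells back from differentiation.

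The tested cells took 4-hydroxytamoxifen for 48 hours (2 arrays) and the control cells took DMSO (2 arrays). The labels also write tamoxifen and 4-Tamoxifen for the compound. Cells of both groups carried Roa-CreERT2, a recombinase that the compound activates, and the construct CAG-CAT-3FlagNanos2-pA. The growth protocol writes the recombinase as Rose-CRE-ERT2 and calls it a knock-in. No group took 4-hydroxytamoxifen without the construct, so effects of Nanos2, of the compound and of the recombinase cannot be told apart. The cells had grown with GDNF, EGF and FGF2 on mitomycin-treated fibroblast feeders, which were removed before RNA extraction. The labels give neither the age of the source animals nor the number of cell lines. RNA was read on Agilent arrays with 1 dye. Each value below is a scaled signal on a linear scale, set so that all arrays share 1 value of the 75th percentile, and each difference is on the log2 scale, the 4-hydroxytamoxifen mean less the DMSO mean, given ± its standard error from limma (2 arrays per group). "Fell" and "rose" mark a limma p below 0.05 after Benjamini-Hochberg adjustment over all 17537 features.

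A double-strand break in DNA is held by the MRE11-RAD50-NBN complex and signalled by the kinases ATM and ATR, which act through the checkpoint kinases CHEK1 and CHEK2. Dividing cells repair it by homologous recombination, in which BRCA1, BRCA2 and their partners prepare single-stranded DNA for pairing with an intact copy, or rejoin the ends directly. The Fanconi proteins open crosslinks between the strands, and excision and mismatch pathways replace damaged or mispaired bases. Germ cells also draw on many recombination proteins in meiosis.

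Nanos2 had scaled signals of 929.8 and 1097 with 4-hydroxytamoxifen, against 345 and 341 with DMSO, a rise of 1.56 ± 0.10. All 4 arrays lay on 1 slide and carried the same scan date. Between 62.1% and 65.9% of spots were well above background, and 0 were saturated. Arrays of 1 group correlated at 0.996 with 4-hydroxytamoxifen and 0.995 with DMSO across 26392 probes, and arrays of different groups at 0.945 to 0.952. Of the germ cell markers, 21 of 23 had a probe above background, 15 of these were lower and 3 higher, and their summed level was 135 and 139 times the 75th percentile with 4-hydroxytamoxifen and 186 and 183 times with DMSO. The germ cell list includes the induced gene Nanos2, which is 1 of the 3 higher markers and is counted in the sums. Zbtb16 and Sohlh1 were not analysed here. Among fibroblast markers 30 of 31 were higher and 0 lower, with sums of 1085 and 1020 with 4-hydroxytamoxifen and 539 and 617 with DMSO, and all 31 were above background on at least 1 array of each group. For macrophages and blood, 10 of 15 markers were higher and 0 lower. They summed to 38.7 and 39.6 with 4-hydroxytamoxifen and 17.7 and 19.6 with DMSO. Itgam, Hbb-bs and Cdh5 had no probe kept for the test. For Sertoli and Leydig cells, 6 of 9 markers were higher and 2 lower. They summed to 13.0 and 12.3 with 4-hydroxytamoxifen and 5.77 and 6.39 with DMSO. Amh, Gata4, Gata1, Fshr, Cyp11a1, Hsd3b1, Insl3 and Lhcgr had no probe kept for the test. Of all features 29.0% were lower and 40.5% higher, and the marker counts are read against these shares. The part of these markers in the results below was not tested. In bulk RNA, fewer cells of a type and less RNA per cell cannot be told apart.

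Most of the repair genes were lower with 4-hydroxytamoxifen. Of the 39, 28 fell and 3 rose, while 8 did not pass. Over all features 29.0% were called lower and 40.5% higher. The median difference was -0.65 for the 39 genes and 0.12 for all features. Falls reached 2-fold in 16 of the 39 (8.05% of all features) and 4-fold in 5 (1.51% of all features). These 5 were Exo1, Fancd2, Brca1, Rad54l and Rad51ap1. Values of the groups did not overlap for 34 of the genes, 31 lower and 3 higher, where 37.3% and 49.2% of all features did the same. The classes differed in their counts. Homologous recombination had 9 of 10 genes lower with a median of -1.34, break sensing and checkpoint 6 of 7 with -0.91, and the Fanconi pathway 7 of 10 with -0.85, each with 0 higher. In excision repair and translesion synthesis 3 of 4 rose and 1 fell. Whether the 2 samples of a group were grown separately is not stated, so each p reflects the scatter of these samples alone, which could be technical scatter.

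**Figure D1:**
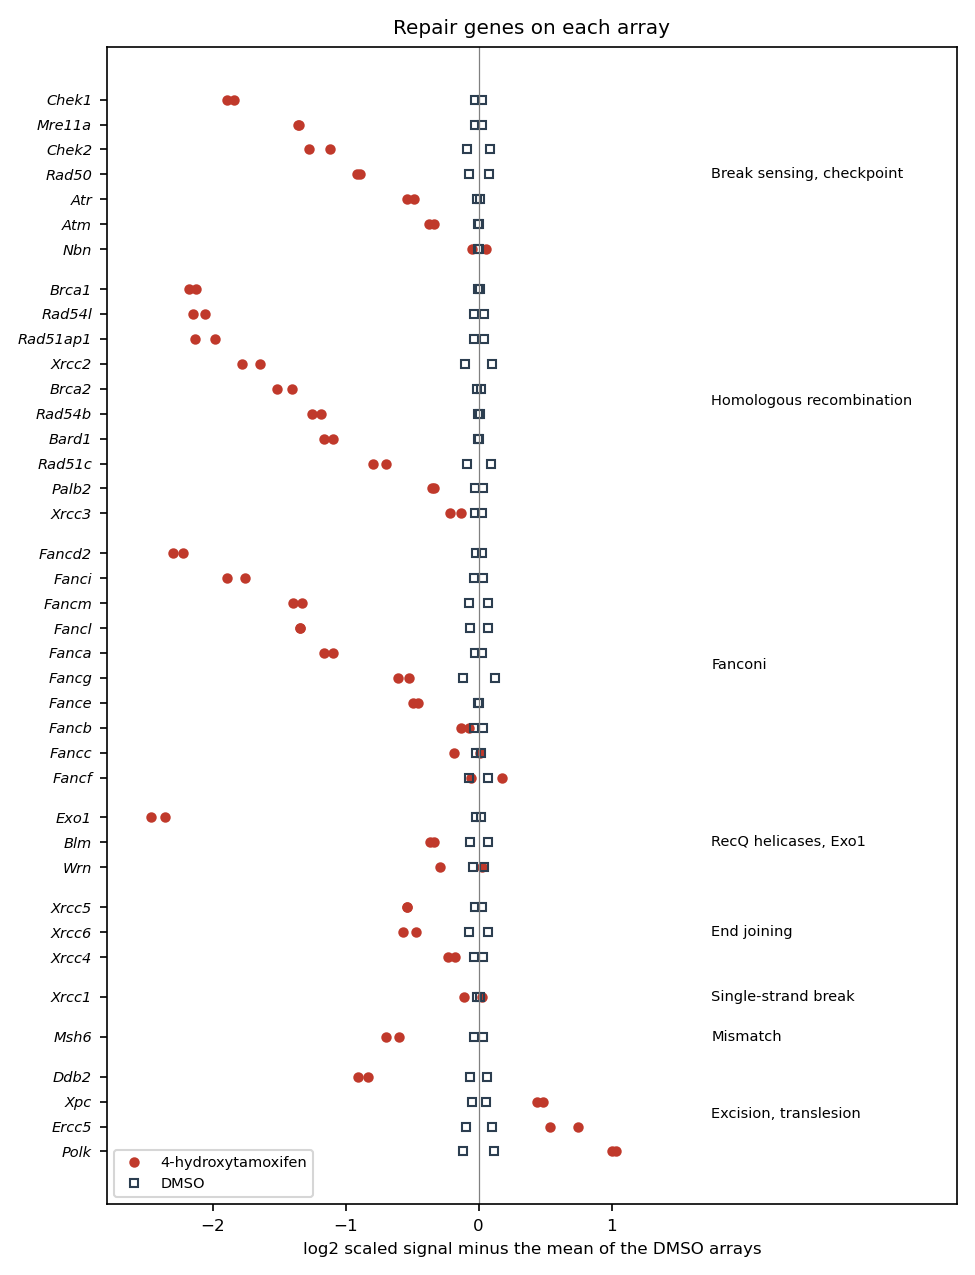
Scaled signal of each repair gene on each array (log2, minus the mean of the DMSO arrays), with 4-hydroxytamoxifen as filled circles and DMSO as open squares, 2 arrays each, grouped by repair class. Exo1, Fancd2, Brca1, Rad54l and Rad51ap1 lie about 4-fold or more to the left, and Polk, Ercc5 and Xpc are the 3 genes to the right with no overlap.

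**Figure D2:**
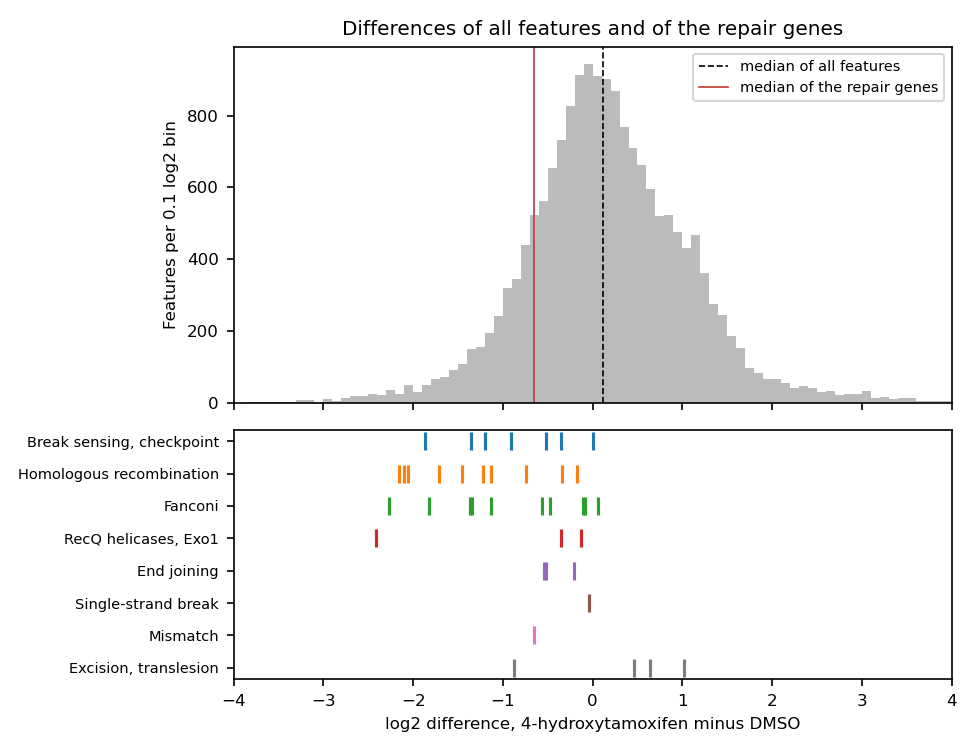
Upper panel: the number of features in each 0.1-wide bin of the log2 difference (4-hydroxytamoxifen minus DMSO) for all 17537 features, drawn from -4 to 4. Lower panel: the same difference for each of the 39 genes, 1 tick per gene, by class. The median of the 39 genes (-0.65) lies to the left of that of all features (0.12).

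Among the genes that sense breaks and halt the cell cycle, both checkpoint kinases fell. Chek1, the kinase that ATR activates when replication stalls, had signals of 297 and 307 with 4-hydroxytamoxifen, against 1122 and 1080.4 with DMSO. It fell by 1.87 ± 0.06 (limma adjusted p = 0.000408), and its second probe gave -1.84. Chek2, the kinase downstream of ATM, had 144 and 129 with 4-hydroxytamoxifen, against 331 and 293 with DMSO, and fell by 1.20 ± 0.10 (limma adjusted p = 0.00131). The groups did not overlap for either kinase. The upstream kinases fell less. Atr had 8577 and 8883 with 4-hydroxytamoxifen, against 12557 and 12387 with DMSO, a fall of 0.51 ± 0.06, and its 3 other probes gave -0.56 to -0.48. Atm had 319.8 and 311 with 4-hydroxytamoxifen, against 403 and 405 with DMSO, a fall of 0.36 ± 0.06, while its second probe, spotted 10 times, gave -0.21 and did not pass (limma adjusted p = 0.135).

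Of the MRE11 complex, 2 of 3 subunits fell. Mre11a, the nuclease, had 1225 and 1231 with 4-hydroxytamoxifen, against 3206 and 3085 with DMSO, and fell by 1.36 ± 0.06 (limma adjusted p = 0.000516). Rad50, the ATPase that tethers the ends, had 637 and 649 with 4-hydroxytamoxifen, against 1269 and 1143 with DMSO, and fell by 0.91 ± 0.08. Its second probe, well above background on 1 of the 2 4-hydroxytamoxifen arrays, gave -0.20 and did not pass (limma adjusted p = 0.566), and the mean of its probes fell by 0.55. Nbn, which recruits ATM, had 4313 and 4626 with 4-hydroxytamoxifen, against 4469 and 4452 with DMSO. Its groups overlapped, and its difference was 0.00 with a 95% interval of -0.19 to 0.19. Whether the subunits differ from each other was not tested. The 60-base probes for Mre11a, which fell, and Nbn, which did not pass, each cover a longer stretch of the genome, Mre11a at chr9:14637146-14638095 (+) and Nbn at chr4:15916258-15919585 (+) of mm9, so each reads across an exon junction. They are printed 5′ to 3′, all in lower case.

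Mre11a: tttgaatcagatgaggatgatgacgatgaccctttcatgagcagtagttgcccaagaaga
Nbn: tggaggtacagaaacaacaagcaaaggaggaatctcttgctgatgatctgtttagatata

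The homologous recombination genes had the lowest median of the classes with several genes, and only Xrcc3 among the 10 did not pass. Brca1, the scaffold and ubiquitin ligase that starts resection and loading, had 475 and 492 with 4-hydroxytamoxifen, against 2143 and 2166 with DMSO. It fell by 2.16 ± 0.06, or 4.46-fold (limma adjusted p = 0.000366), and was the 200th lowest difference of all features. Bard1, its obligate partner, had 87.7 and 91.6 with 4-hydroxytamoxifen, against 197 and 195 with DMSO, and fell by 1.13 ± 0.06. Brca2, which acts after resection of the break, had 1528 and 1413 with 4-hydroxytamoxifen, against 3998 and 4076 with DMSO, and fell by 1.46 ± 0.07. Palb2, the bridge between BRCA1 and BRCA2, had 148 and 147 with 4-hydroxytamoxifen, against 190.3 and 183 with DMSO, and fell by 0.34 ± 0.06. This was the smallest change among the 9, although a second Palb2 probe gave -1.03. Palb2 did not pass without 4-hydroxytamoxifen replicate 2 (limma adjusted p = 0.0527).

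Genes of the strand exchange step fell as well. Rad54l, the motor that drives strand exchange, had 301 and 319.7 with 4-hydroxytamoxifen, against 1370.1 and 1302 with DMSO, and fell by 2.11 ± 0.07. Its relative Rad54b had 755 and 789 with 4-hydroxytamoxifen, against 1788 and 1805 with DMSO, and fell by 1.22 ± 0.06. A second Rad54b probe, well above background on 1 of the 2 4-hydroxytamoxifen arrays, gave -1.16 and did not pass (limma adjusted p = 0.0513). Rad51ap1, which promotes strand exchange, had 231 and 256 with 4-hydroxytamoxifen, against 1040.2 and 987 with DMSO, and fell by 2.06 ± 0.08. Xrcc2, Rad51c and Xrcc3 belong to protein complexes that act in recombination. Xrcc2 had 69.5 and 76.7 with 4-hydroxytamoxifen, against 257 and 223 with DMSO, and fell by 1.71 ± 0.10. Rad51c, which sits in more than 1 of these complexes, had 323 and 345 with 4-hydroxytamoxifen, against 596 and 526 with DMSO, and fell by 0.75 ± 0.09. Xrcc3, the partner of RAD51C in the smaller complex, had 512 and 544 with 4-hydroxytamoxifen, against 606 and 585 with DMSO. Its groups did not overlap, but its difference of -0.17 (95% interval -0.36 to 0.01) did not pass (limma adjusted p = 0.084). Xrcc3 passed with median scaling (-0.35) and with normexp background correction (-0.17).

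Of the 10 Fanconi genes 7 fell. Fancd2 and Fanci, the pair that is ubiquitinated at a crosslink, showed its largest falls. Fancd2 had 619.7 and 588 with 4-hydroxytamoxifen, against 2945 and 2849.8 with DMSO, and fell by 2.26 ± 0.07, or 4.80-fold (limma adjusted p = 0.000377). Fanci had 1228 and 1355 with 4-hydroxytamoxifen, against 4684 and 4469 with DMSO, and fell by 1.83 ± 0.08. Fancl, the ubiquitin ligase that marks the pair, had 675 and 673 with 4-hydroxytamoxifen, against 1794 and 1635 with DMSO, and fell by 1.35 ± 0.08. Fancm, the translocase that anchors the core complex to DNA, had 103 and 98.1 with 4-hydroxytamoxifen, against 246 and 273 with DMSO, and fell by 1.36 ± 0.08. Groups of these 4 genes did not overlap.

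In the rest of the core complex Fanca fell by 1.13 ± 0.07, with 2269 and 2382 with 4-hydroxytamoxifen, against 5169 and 4997 with DMSO. Fance, which contacts FANCD2, had 9234 and 9498 with 4-hydroxytamoxifen, against 13002 and 13039.8 with DMSO, and fell by 0.48 ± 0.06. Fancg had 1179 and 1116 with 4-hydroxytamoxifen, against 1844 and 1562 with DMSO, and fell by 0.56 ± 0.11 (limma adjusted p = 0.0107). Its 2 other probes gave -1.10 and 0.43, the mean of its probes did not pass, and neither did the gene without 4-hydroxytamoxifen replicate 2. The remaining 3 core genes did not pass. Fancb had 780.2 and 813 with 4-hydroxytamoxifen, against 836 and 878 with DMSO (difference -0.11, 95% interval -0.29 to 0.08). It passed with median scaling, at -0.28. Fancc had 473 and 411 with 4-hydroxytamoxifen, against 475 and 463 with DMSO (-0.09, 95% interval -0.34 to 0.17). Fancf, whose signal was near background, had 27.8 and 32.7 with 4-hydroxytamoxifen, against 30.5 and 27.6 with DMSO (0.06, 95% interval -0.25 to 0.37). Groups overlapped for Fancc and Fancf.

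Exo1, the exonuclease that resects breaks and excises mismatched strands, showed the largest fall of the 39 genes. It had 1406 and 1512 with 4-hydroxytamoxifen, against 7865 and 7669 with DMSO, and fell by 2.41 ± 0.07, or 5.33-fold (limma adjusted p = 0.000377), the 130th lowest difference of all features. The RecQ helicases Blm and Wrn unwind recombination intermediates. Blm had 3622 and 3550.0 with 4-hydroxytamoxifen, against 4368 and 4801 with DMSO, and fell by 0.35 ± 0.08 (limma adjusted p = 0.0164). It did not pass when DMSO replicate 2 (-0.28), 4-hydroxytamoxifen replicate 1 (-0.37) or 4-hydroxytamoxifen replicate 2 (-0.34) was dropped, or when dim probes were not filtered. Wrn had 179 and 143 with 4-hydroxytamoxifen, against 180.3 and 170.2 with DMSO, and its difference of -0.13 (95% interval -0.49 to 0.23) did not pass. A second Wrn probe overlaps the first by 51 bases, 50 of them identical, and gave 111 and 109 with 4-hydroxytamoxifen against 155 and 147 with DMSO. That probe fell by 0.46, and the mean of the Wrn probes passed as lower at -0.30. Msh6, whose protein recognises single mismatches, had 19760.0 and 21135 with 4-hydroxytamoxifen, against 32827 and 31266 with DMSO, and fell by 0.65 ± 0.07.

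Of 3 end-joining genes 2 fell, with a class median of -0.52. They encode the Ku subunits, which cap broken ends. Xrcc5 had 3774 and 3778 with 4-hydroxytamoxifen, against 5390.3 and 5578 with DMSO, and fell by 0.54 ± 0.06. Xrcc6 had 1386 and 1484 with 4-hydroxytamoxifen, against 2159 and 1959 with DMSO, and fell by 0.52 ± 0.08. Xrcc4, the partner of the end-joining ligase, had 679 and 655 with 4-hydroxytamoxifen, against 785 and 749 with DMSO. Its groups did not overlap, and its difference of -0.20 (95% interval -0.38 to -0.02) did not pass (limma adjusted p = 0.0523, alternatives from 0.0101 to 0.207). A second Xrcc4 probe was lower at -0.35 (limma adjusted p = 0.0225), and the mean of the probes passed as lower at -0.28. Xrcc1, the scaffold of single-strand break repair, had 13440.3 and 14835 with 4-hydroxytamoxifen, against 14673 and 14416 with DMSO. Its groups overlapped and its difference was -0.04 (95% interval -0.26 to 0.17).

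Excision repair and translesion synthesis held the 3 genes that rose. Polk, a polymerase that copies past damaged bases, had 419 and 411 with 4-hydroxytamoxifen, against 189 and 222 with DMSO, and rose by 1.02 ± 0.10, or 2.03-fold (limma adjusted p = 0.00181). Ercc5, the nuclease that makes the 3′ incision, had 538 and 465 with 4-hydroxytamoxifen, against 299.5 and 343 with DMSO, and rose by 0.64 ± 0.12 (limma adjusted p = 0.00951). Xpc, which finds distorted DNA across the genome, had 5806 and 5976 with 4-hydroxytamoxifen, against 4431 and 4119 with DMSO, and rose by 0.46 ± 0.07 (limma adjusted p = 0.00583). A second Xpc probe gave 0.25 and did not pass. With scaling on spike-in probes the Polk call held, while Xpc (0.28) and Ercc5 (0.46) did not pass. Ddb2, which hands ultraviolet lesions to XPC, went the other way. It had 468 and 493 with 4-hydroxytamoxifen, against 919 and 841 with DMSO, and fell by 0.87 ± 0.08 (limma adjusted p = 0.00148). In human cells DDB2 and XPC are both targets of p53. Of 25 other p53 targets measured, 19 were higher and 3 lower, with a median of 0.81, where 40.5% of all features were higher and 29.0% lower with a median of 0.12. That list was chosen with earlier results known, and any part of p53 in the values of the excision and translesion genes was not tested. The probes for Ddb2, at chr2:91052457-91052640 (-), and for Ercc5, at chr1:44235217-44236048 (+) of mm9, are shown as those of a fallen and a risen excision gene, and also reach across an exon junction.

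Ddb2: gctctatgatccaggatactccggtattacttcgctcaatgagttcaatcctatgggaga
Ercc5: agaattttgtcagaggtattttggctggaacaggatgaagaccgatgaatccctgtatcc

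Several genes were read by more than 1 probe. Of the 73 probes, 65 were above background on at least 2 arrays, and 21 genes had more than 1 of these. Adjusted over all probes, 47 of the 65 were lower and 3 higher, where 30.8% and 36.5% of all kept probes were. The 26 probes that did not stand for their gene were lower in 19 cases and higher in 0, and 18 of them had the same call as the gene's brightest probe, with 0 in the opposite direction. A second Brca1 probe was not well above background with 4-hydroxytamoxifen, where it read 10.6 and 10.3, against 79.5 and 71.7 with DMSO, and was at least 4.29-fold lower. In the same way second probes of Fanca, Chek2 and Xrcc2 were at least 3.06-fold, 2.15-fold and 1.94-fold lower. Such a bound sets the mean of the brighter group against the lowest signal well above background on each array, or the probe's own signal where that is higher. The Mre11a probes differed among themselves and gave -1.36, -1.19 and -0.24. The probe at -0.24, which did not pass, read 222 and 210.2 with 4-hydroxytamoxifen, against 266 and 243 with DMSO, and its accession is an Ensembl transcript, ENSMUST00000115632, where the other 2 carry the RefSeq one.

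**Figure D3:**
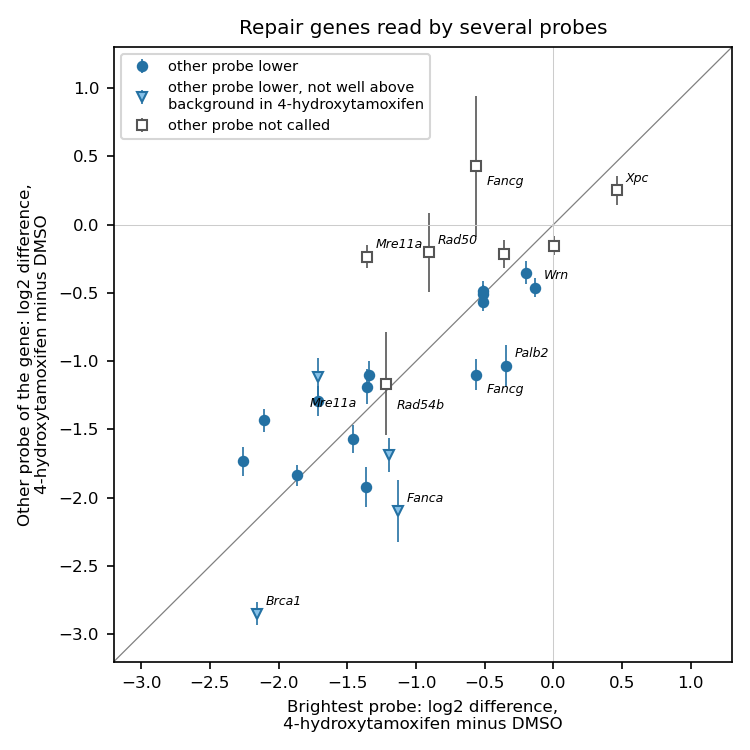
For each repair gene read by several probes, the log2 difference (4-hydroxytamoxifen minus DMSO) of the brightest probe on the horizontal axis and of every other kept probe on the vertical axis, with bars for the standard error of the fit. The line marks equal values; 19 of the 26 points were lower, 7 were not called, and triangles mark 4 probes not well above background with 4-hydroxytamoxifen.

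The wider repair machinery was read through a second list of 121 genes of the same pathways, 120 of them measured. It held 78 genes that were lower and 14 that were higher, with a median of -0.47. Of all features 29.0% were lower and 40.5% higher, with a median of 0.12, and every list below is read against these shares. By pathway, 15 of 18 further sensing and checkpoint genes were lower and 1 higher, with Tipin, which protects stalled forks, the furthest at -1.46 ± 0.08. Of 26 recombination genes 18 were lower and 2 higher, led by the resolvase subunit Eme1 at -2.54 ± 0.10. Of 10 Fanconi genes 8 were lower and 1 higher, led by Usp1, which removes ubiquitin from FANCD2, at -1.37 ± 0.07. All 3 further RecQ genes were lower, with Recql4 at -1.20 ± 0.06. Base excision and single-strand break repair, the setting of Xrcc1, had 16 of 21 genes lower and 0 higher, led by the glycosylase gene Neil3 at -2.93 ± 0.16. The remaining lists are read against the same shares of all features. Of 10 further end-joining genes 3 were lower and 1 higher, so that 30.0% were lower, near the share of all features, and 10.0% higher. Of 6 mismatch genes 3 were lower and 1 higher, with Pms1 at -1.57 ± 0.07. Among 26 genes of nucleotide excision and translesion synthesis 12 were lower (46.2%) and 8 higher (30.8%, below the share of all features), and the largest change was the fall of Gtf2h3, a subunit of the repair and transcription factor TFIIH, at -1.77 ± 0.08.

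**Figure D4:**
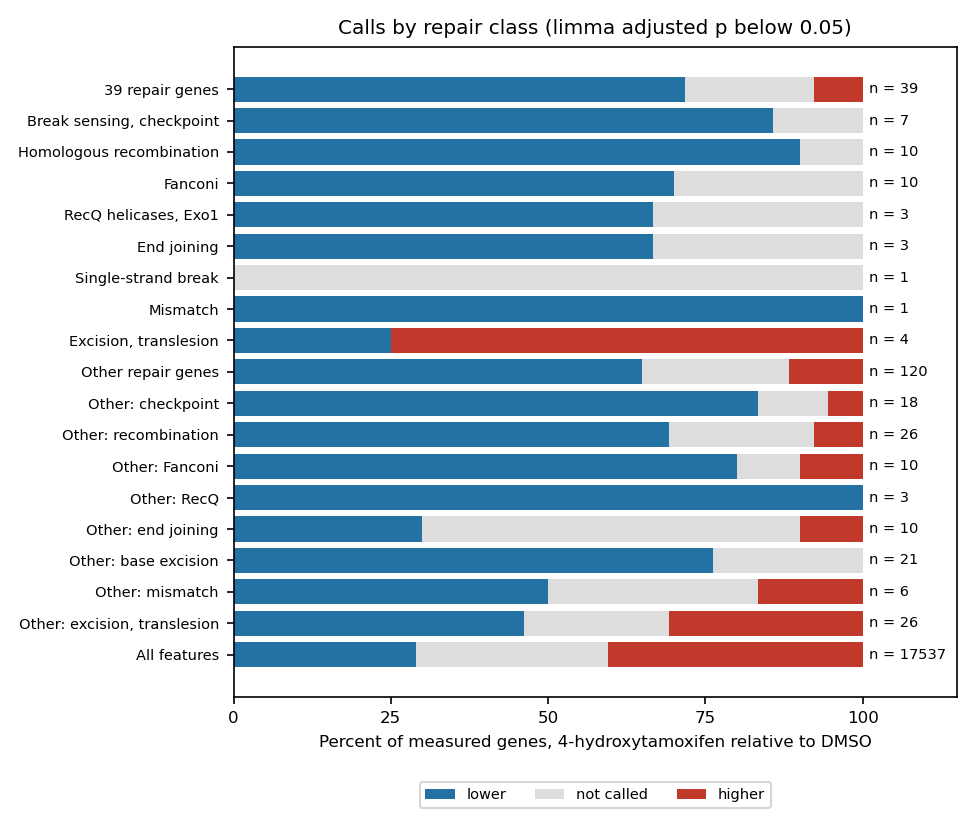
Share of measured genes that were lower (left segment), not called (middle) or higher (right) with 4-hydroxytamoxifen relative to DMSO, for the 39 repair genes by class, the 120 other repair genes by pathway, and all 17537 features. Lower genes make up 90.0% of the homologous recombination class and 29.0% of all features.

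Direct partners of the 39 genes were looked at after their values were seen. The list was also shortened then, and the genes dropped were mostly ones that did not pass or whose call or direction moved with the processing, so those named are a selected few. Brip1, the helicase bound to BRCA1, was at -1.49 ± 0.06 and Topbp1, which activates ATR, at -1.36 ± 0.07. H2ax, the histone that ATM marks at breaks, was at -0.45 ± 0.06. Parp1, which recruits XRCC1 to nicks, fell by 0.93 ± 0.11, whereas Lig3, the ligase bound to XRCC1, was at -0.12 ± 0.08 and did not pass. Prkdc, the kinase that Ku recruits, was at -0.13 ± 0.07 and did not pass. Both passed as lower with median scaling. In nucleotide excision, the nuclease pair of the 5′ incision rose, with Ercc4 at 1.13 ± 0.07 and Ercc1 at 0.61 ± 0.07, as did the damage verifier Xpa at 0.86 ± 0.08. Ercc1 did not pass with spike-in scaling. Ddb1, the partner of DDB2, fell by 0.39 ± 0.10, a call lost with the replicate block (limma adjusted p = 0.0581), without filtering dim probes, and when replicate 1 of either group was dropped. In the same arrays 32 of 33 genes of DNA replication and 28 of 28 of mitosis were lower, with medians of -1.14 and -2.08 (all features, 29.0% lower and a median of 0.12), and fibroblast markers were higher. Their part in the repair values was not tested.

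Promoter windows from RefSeq (GRCm38.p6, 300 bases, mostly before a gene's start) were at hand for 30 of the 39 genes, and short motifs were searched in them. An E2F-type motif, TTTNNCGC on either strand, was present in 8 of the 30, where 5.93% of all 27025 genes with a window hold it. Among the other repair genes, 16 of the 97 with a window held it. Of the 22 fallen genes with a window 7 held it, of the 6 that did not pass 0, and of the 2 that rose 1. CCAAT was present in 20 of 30 (41.1% of all genes) and GGGCGG in 19 of 30 (38.2%), while TTTGAA, the core of the CHR element, was present in 2 of 30 (20.2%). Why these shares differ from those of all genes was not tested. Bard1, Chek2 and Brca2 are shown as the fallen genes with matches that fell most. The other fallen genes with a match were Rad51c (-0.75), Msh6 (-0.65), Fancg (-0.56) and Xrcc6 (-0.52). Brca1 is shown as a gene with a larger fall and no match, Ercc5 as a risen gene with a match and Polk as one with none. Capitals mark TTTNNCGC or its reverse complement, and each window runs 5′ to 3′ on the gene's strand. Bard1 lies at chr1:71102923-71103222 (-), Chek2 at chr5:110839733-110840032 (+), Brca2 at chr5:150522371-150522670 (+), Brca1 at chr11:101551906-101552205 (-), Ercc5 at chr1:44147494-44147793 (+) and Polk at chr13:96542530-96542829 (-), the upstream one of its 2 windows.

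Bard1: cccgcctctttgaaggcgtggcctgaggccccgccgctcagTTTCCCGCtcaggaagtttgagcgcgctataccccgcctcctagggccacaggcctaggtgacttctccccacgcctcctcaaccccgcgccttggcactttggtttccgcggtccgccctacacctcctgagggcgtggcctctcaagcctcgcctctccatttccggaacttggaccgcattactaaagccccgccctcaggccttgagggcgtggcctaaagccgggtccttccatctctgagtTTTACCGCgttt
Chek2: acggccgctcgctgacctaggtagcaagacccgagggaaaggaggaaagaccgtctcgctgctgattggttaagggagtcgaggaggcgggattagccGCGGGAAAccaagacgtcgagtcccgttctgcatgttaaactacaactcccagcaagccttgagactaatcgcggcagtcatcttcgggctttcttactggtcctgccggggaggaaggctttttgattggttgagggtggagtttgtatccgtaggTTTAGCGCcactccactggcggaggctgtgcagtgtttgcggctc
Brca2: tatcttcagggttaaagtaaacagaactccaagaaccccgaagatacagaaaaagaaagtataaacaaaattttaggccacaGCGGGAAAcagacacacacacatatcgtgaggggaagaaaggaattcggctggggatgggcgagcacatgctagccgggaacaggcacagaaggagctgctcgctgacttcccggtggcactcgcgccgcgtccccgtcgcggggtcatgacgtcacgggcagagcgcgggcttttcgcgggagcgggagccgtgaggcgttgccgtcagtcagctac
Brca1: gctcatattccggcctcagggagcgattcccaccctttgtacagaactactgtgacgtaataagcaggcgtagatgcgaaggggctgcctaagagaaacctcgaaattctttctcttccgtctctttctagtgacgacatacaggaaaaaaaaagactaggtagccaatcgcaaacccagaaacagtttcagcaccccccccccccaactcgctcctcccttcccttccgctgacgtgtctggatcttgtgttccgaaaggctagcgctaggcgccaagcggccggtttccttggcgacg
Ercc5: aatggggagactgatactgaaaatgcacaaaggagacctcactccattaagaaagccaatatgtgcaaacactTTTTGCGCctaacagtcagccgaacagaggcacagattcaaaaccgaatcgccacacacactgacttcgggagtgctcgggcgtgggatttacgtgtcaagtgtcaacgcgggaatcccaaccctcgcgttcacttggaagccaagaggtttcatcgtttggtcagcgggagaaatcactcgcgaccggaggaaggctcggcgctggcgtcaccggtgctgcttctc
Polk: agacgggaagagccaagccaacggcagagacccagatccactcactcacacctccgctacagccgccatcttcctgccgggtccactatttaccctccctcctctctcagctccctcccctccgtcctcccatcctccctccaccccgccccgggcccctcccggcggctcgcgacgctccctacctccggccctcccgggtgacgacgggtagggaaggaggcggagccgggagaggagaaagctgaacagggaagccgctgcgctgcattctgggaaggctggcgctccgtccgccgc

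The windows of Bard1 and Chek2 each hold 2 matches, and those of Brca2 and Ercc5 hold 1. A match is a run of letters and not a site shown to be bound. Like that of Brca1, the windows of Rad54l, Rad51ap1, Chek1 and Fanci held no E2F-type motif. Each of these genes fell by more than any gene found with a match. Exo1, Fancd2, Xrcc2, Rad50, Rad54b, Ddb2, Xpc, Nbn and Wrn had no window.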

How the data were processed

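Total RNA of 4 samples was hybridised to Agilent arrays with 1 dye. The deposited scanner files hold linear intensity values, background-subtracted and detrended within each array by Feature Extraction 10.7.3.1, per the file headers (the submitters' processing notes name version 9.5). The deposited table of log2 values differed from the logged scanner signal only by a constant on each array, 0.362 and 0.356 with 4-hydroxytamoxifen and 0.290 and 0.275 with DMSO (column medians 6.35 and 6.35, and 6.16 and 6.18), so its scale, centring and direction were known, and it served as an alternative.

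Control and outlier spots (60 to 71 per array) were left out, spots of 1 probe averaged, and log2 signals centred on each array's 75th percentile (signals of 676 to 718). Probes well above background on at least 2 arrays were kept (26392), and the brightest stood for its gene. Of 41174 probes, 7538 kept the file's name and the others were named through RefSeq (GRCm38.p6, names only). Probe coordinates are mm9, per the file headers.

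The test was limma 3.58.1 (R 4.3.3) with group as the only term, after a test on simulated data. An exact permutation of 2 against 2 cannot give a small p, so each p rests on the spread limma pools over genes. Arrays of a group differed by 3.86 (4-hydroxytamoxifen) and 3.61 (DMSO) times the noise between repeated spots on an array. The files of a group thus differ by more than spot noise, which does not show separate cultures. Signal over background and 2 arrays per group limit the precision. Every one of the 39 genes is described. In each further pathway list the gene with the largest passing change is named, except where it is not reported here, and partners were chosen after their values were seen. The members and lists were chosen with earlier results of these data known. Alternatives covered scaling, background correction, filters, probe choice, the deposited table, a replicate block and leaving out each array.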

Additional observations from a re-analysis of the deposited data

How the results depend on the processing

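Of the 39 genes, 26 kept their direction and their side of the threshold under all 13 alternatives, and the other 13 are Nbn, Palb2, Xrcc3, Fancb, Fancc, Fancf, Fancg, Blm, Wrn, Xrcc4, Xrcc1, Xpc and Ercc5. Scaling moved the whole table. The median of all features was 0.12, and -0.06 with median scaling and -0.07 with spike-in scaling, and the median of the repair genes was then -0.83 in both. Features called higher and lower were 7106 and 5079 (58.3% of calls higher), 5774 and 6582 with median scaling (46.7%) and 4685 and 5048 with spike-in scaling (48.1%). Spike-in scaling left 1 of the 39 genes higher (Polk), which is also the 1 gene higher in the excision class, and 4 of the 120 other repair genes higher, against 14. That count was 8 with median scaling, 9 with no filter on dim probes, and 9 to 13 without 1 array. The RecQ and Exo1 class had 1 gene lower with no filter on dim probes and 1 to 2 without 1 array. Lower genes among the 39 numbered 25 to 28 without 1 array. Differences changed sign for Nbn (-0.18 with median scaling, -0.18 with spike-in scaling, -0.00546 with normexp, -0.076 with the mean of probes, -0.048 to 0.053 without 1 array) and Fancf (-0.16 with quantile normalization, -0.12 with median scaling, -0.12 with spike-in scaling, -0.060 to 0.17 without 1 array). Without 1 array Fancc ran from -0.19 to 0.013, Wrn from -0.29 to 0.028 and Xrcc1 from -0.11 to 0.029. Of these 5 genes, only Wrn passed under an alternative, as lower with the mean of probes (-0.30). The cause of these changes was not tested. Samples of equal number were treated as unpaired (correlation of same-number deviations -0.04). With the replicate block 28 of the 39 genes were lower and 3 higher, and 6572 and 4526 of all features were higher and lower. Signal near background limits Fancf and the second probes of Brca1, Fanca, Chek2 and Xrcc2.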
